A study of Mus musculus with 30 samples.

Results

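The 35 genes described here carry out, control or answer to the synthesis of sterols and fatty acids: 18 enzymes on the route from acetyl-CoA to cholesterol, 8 enzymes that make, elongate or desaturate fatty acids, 6 genes of the SREBP control system and of sterol transport, and 3 targets of the liver X receptors (LXR). They were chosen by name for what they do in lipid synthesis, with earlier results of these data known. Counts set against all genes are therefore description and no independent test. Each gene also had to reach at least 10 counts in 5 or more libraries. All 35 named genes passed that rule, out of 55573 genes in the count table, and all 35 were among the 11718 genes tested.

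The samples were naive CD8+ T cells of C57BL/6 mice aged 8 weeks, taken from spleen and lymph nodes by magnetic sorting and cultured for 3 days in serum-free X-VIVO 20 medium. Every culture, controls included, was stimulated through plate-bound antibodies against CD3 and CD28 at 5 µg/ml each. Cells were labelled Furin WT or KO and were left without cytokine (called untreated below) or were given 0.5 ng/ml of TGFB1 or 10 ng/ml of IL12, which gives 6 groups of 5 poly(A) RNA-seq libraries. Furin is a protease that cuts precursor proteins, the precursor of TGFB1 among them. The labels used here do not state which part of the gene was deleted or in which cells. Each genotype had 4 libraries per condition from females and 1 from a male. Libraries carry the numbers 62, 67, 71, 72 and 75 in the WT groups and 63, 68, 70, 73 and 74 in the KO groups, and values of single libraries are always given in that order. The labels do not say that the numbers stand for separate animals, so p-values measure the spread between these libraries. Each group held both sexes and so more than 1 animal, but the spread among libraries of females may be technical.

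As background, cells make cholesterol from acetyl-CoA through mevalonate, farnesyl diphosphate, squalene and lanosterol. When sterols run low, SCAP carries the SREBP proteins from the endoplasmic reticulum to the Golgi apparatus, where proteases release a fragment that enters the nucleus and switches on sterol and fatty acid enzymes, while INSIG proteins hold SCAP back when sterols are plentiful. The LXR receptors bind oxidised sterols and switch on genes of cholesterol export, such as Abca1 and Abcg1, and Mylip, which encodes a ubiquitin ligase that lowers lipoprotein uptake. T cells switch on SREBP-driven lipid synthesis when they are activated, since dividing cells need new membranes.

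Library totals ran from 7306151 to 15502443 counts. Furin itself stood at 28.8 to 38.5 CPM, the count scaled to library size, in WT and 31.5 to 33.9 CPM in KO libraries without cytokine, at 73.9 to 93.2 and 66 to 90.2 CPM with TGFB1, and at 161 to 533 and 120 to 463 CPM with IL12. The adjusted p of KO against WT was 0.914, 0.901 and 0.0799 in these conditions, so Furin counts over the whole gene did not check the genotype labels. The 8 defining genes of CD8 T cells that were listed (Cd3d, Cd3e, Cd3g, Cd247, Cd8a, Cd8b1, Lck, Trac) were present in all libraries. Among 17 markers of other cells, 5 were expressed enough to be tested, while the erythroid gene Hba-a1 was at 0 in every library.

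In all 9 comparisons log2 differences are those of edgeR's quasi-likelihood model fitted to all 30 libraries, errors are standard errors (SE), and a gene is said to have risen or fallen where its Benjamini-Hochberg adjusted p over the 11718 genes was below 0.05. Without added cytokine the 35 genes took 0.746% ± 0.0541 (SD, n = 5) of all counts in WT and 0.764% ± 0.0124 in KO libraries. With TGFB1 the share was 0.567% ± 0.117 in WT and 0.843% ± 0.112 in KO libraries, and with IL12 it was 0.786% ± 0.0904 and 0.895% ± 0.0297. The WT libraries with TGFB1 therefore had the lowest mean share of the 6 groups. Gene by gene, 27 of the 35 had their lowest group mean in WT with TGFB1, where 27.9% of all genes tested had theirs. The highest mean fell in KO with TGFB1 for 15 genes and in KO with IL12 for 12, where 13.6% and 17.8% of all genes tested had theirs.

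**Figure D1:**
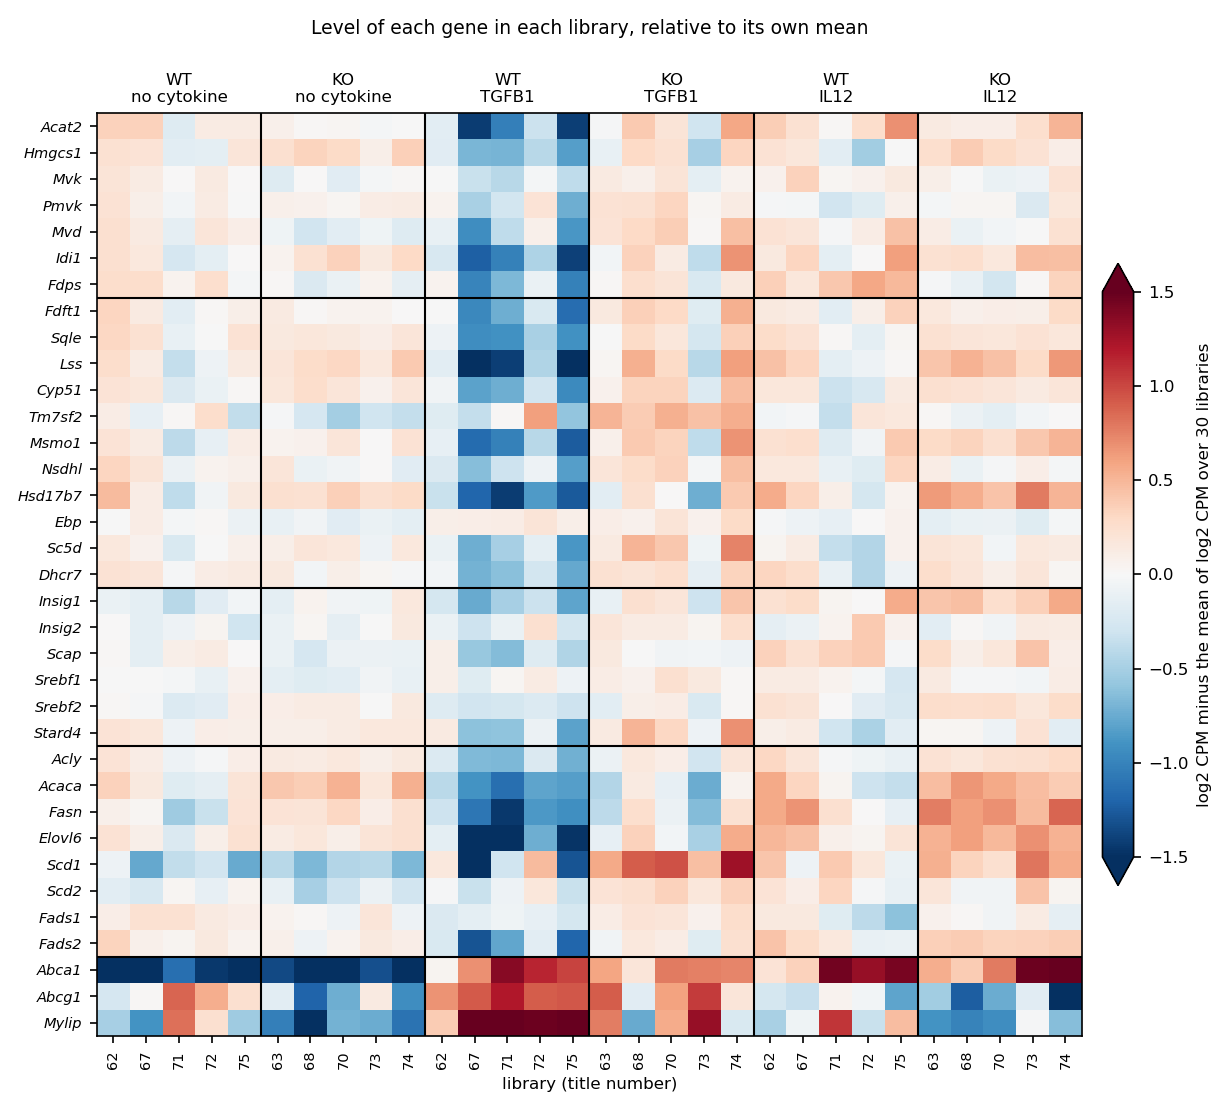
Expression of the 35 genes in 30 libraries. Each cell is the log2 CPM of a gene in a library minus the gene's mean over all libraries, with genes in rows by role and libraries in columns by group; most enzyme rows are at their lowest in WT with TGFB1, and the 3 LXR targets run the other way there.

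Levels can be set against each other only per length of exon. In WT cells without cytokine Scd2, a stearoyl-CoA desaturase that puts the first double bond into fatty acids, had the highest mean at 207 CPM per kb, followed by the sterol demethylase Cyp51 at 151 CPM per kb and by Acly, which makes cytosolic acetyl-CoA from citrate, at 125 CPM per kb. At the other end stood Acaca, the acetyl-CoA carboxylase, at 5.03, Mylip at 1.04 and Abca1 at 0.192 CPM per kb. Lengths joined all annotated exons of a gene, 17074 bases for Acaca, so exons not used in these cells lower the value. Acaca also shares sequence with other genes, as given below.

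TGFB1 lowered most of these genes in WT cells. Of the 35 genes, 26 fell and 2 rose, against 18.6% of all genes that fell and 19.2% that rose (37.9% in either direction). The median log2 difference was -0.50, where the median of all genes was 0.0164. All 7 genes of the mevalonate steps, 9 of the 11 genes from squalene to cholesterol, 6 of the 8 fatty acid genes and 4 of the 6 control and transport genes were among those that fell, and 2 of the 3 LXR targets rose. The values of 7 genes in all 5 WT libraries with TGFB1 lay below all 5 WT libraries without cytokine, and those of 1 gene lay above them, where 6.77% and 8.06% of all genes did so. In bulk RNA, fewer cells of a kind and less RNA per cell cannot be told apart.

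In KO cells TGFB1 raised 9 of the 35 genes and lowered 1. Of all genes 13.5% rose and 11% fell, and the median log2 difference over the 35 was 0.15. The genes that rose included all 3 LXR targets, 3 of the 18 sterol enzymes, 2 fatty acid desaturases and Srebf1. The values of 8 genes lay above and of 1 gene below those of all 5 KO libraries without cytokine, against 10.9% and 9.87% of all genes.

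With TGFB1 present, KO cells had more of nearly all these mRNAs than WT cells. Of the 35 genes, 29 were higher in KO, 1 was lower and 5 did not pass the test, where 18.3% of all genes were higher, 17.3% lower and 35.6% either. The median log2 difference was 0.62 over the 35 genes and -0.0061 over all genes. By role, 7 of 7 mevalonate genes were higher with a median of 0.62, 10 of 11 genes from squalene to cholesterol with a median of 0.75, 8 of 8 fatty acid genes with a median of 0.66, and 4 of 6 control and transport genes with a median of 0.28. None of the 3 LXR targets was higher and 1 was lower. With the model fitted to these groups of libraries alone, the calls of Mvk, Pmvk, Fdps, Tm7sf2, Srebf2, Scap and Mylip were lost (adjusted p from 0.0503 to 0.0805). The ranges of the groups mostly overlapped: the KO values of 4 genes lay above all WT values and those of none lay below, where 3.73% and 3.91% of all genes did so. The test of TGFB1 in WT and the test of KO against WT with TGFB1 share the 5 WT libraries with TGFB1, so their counts are not independent of each other.

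The difference between the 2 TGFB1 responses was tested directly, as the TGFB1 response in KO minus that in WT. It passed for 15 of the 35 genes, all more positive in KO, where 1.61% of all genes were more and 1.69% less positive (3.3% in either direction). The difference was above 0 for 33 of the 35 genes with a median of 0.59, and the median over all genes was 0.0053. The 15 genes were 11 sterol enzymes (Acat2, Mvk, Mvd, Fdps, Fdft1, Sqle, Tm7sf2, Msmo1, Nsdhl, Sc5d and Dhcr7) and 4 fatty acid genes (Elovl6, Scd1, Scd2 and Fads2). In this fit no control gene and no LXR target was among them. Scap and Stard4 missed narrowly (adjusted p = 0.0569 and 0.0562) and passed with DESeq2 and in females alone, where 23 genes passed in each case, and 8 passed with the compared groups fitted alone. The count also depended on single libraries. It was 27 without WT library 62 and 24 without KO library 73 of the TGFB1 groups. It was 2 without any of WT 67, 71 or 75 or KO 68 or 74 of the TGFB1 groups and 2 without KO 68 of the untreated groups. Leaving out KO 70 with TGFB1 gave 7, and leaving out WT 62, 67 or 72 or KO 63, 70 or 74 of the untreated groups gave 6, 7, 6, 8, 4 and 3. Where only 2 genes remained these were Mvd and Nsdhl, which passed without any single library, and the number over all genes had then dropped from 387 to between 58 and 93.

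**Figure D2:**
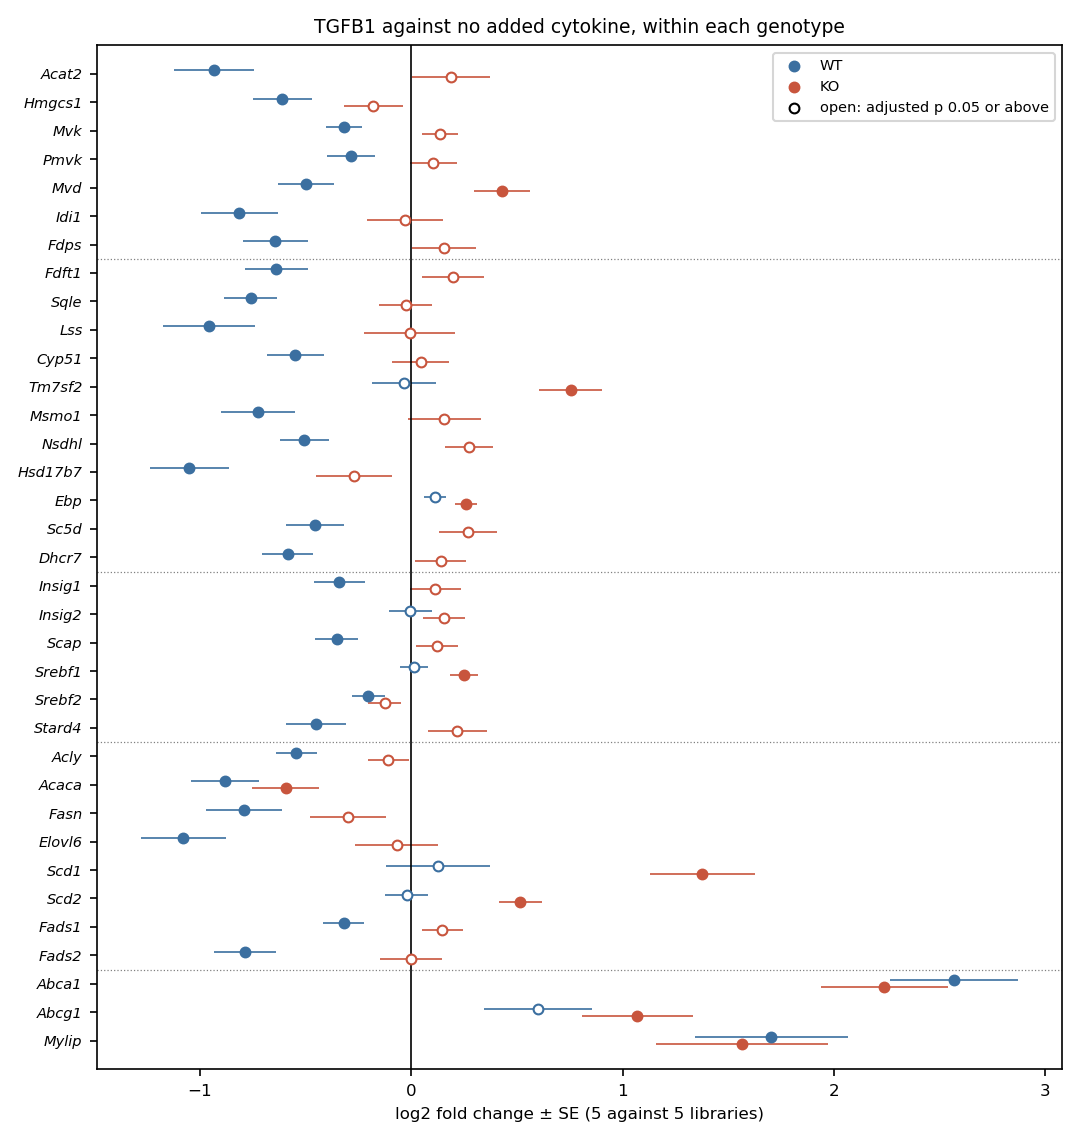
Log2 difference between cells with and without TGFB1 for each of the 35 genes, in WT (blue) and KO cells (red), with SE as bars and open symbols where the adjusted p was 0.05 or more. The blue points of the enzymes lie mostly below 0 and the red points near or above 0, while both points of Abca1 and Mylip lie above 1.5.

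Among the genes of the early steps, Mvd, which encodes mevalonate diphosphate decarboxylase, showed the difference between responses most steadily (ENSMUSG00000006517, chromosome 8, 122433601 to 122443422, - strand). Its values were 191, 179, 148, 184 and 174 CPM in untreated WT libraries and 150.5, 84.8, 124, 171 and 88.7 CPM in WT libraries with TGFB1. They were 155, 132, 146, 156 and 142 CPM in untreated KO and 186, 200.3, 209.6, 165 and 221 CPM in KO libraries with TGFB1. The KO libraries with TGFB1 all exceeded the untreated KO libraries, whereas in WT the libraries 62 and 72 with TGFB1 lay within the untreated range and 67 and 75 were lowest. The log2 difference with TGFB1 was -0.50 ± 0.13 (adjusted p = 0.00435) in WT and 0.43 ± 0.13 (adjusted p = 0.0182) in KO, and the difference between them was 0.93 ± 0.19 (adjusted p = 0.0159). The rise in KO was lost without untreated KO library 68 or KO library 74 with TGFB1, where its adjusted p reached at most 0.0513. Acat2, the cytosolic thiolase that joins acetyl-CoA units (ENSMUSG00000023832, chromosome 17, 12942890 to 12960747, - strand), went from 119, 118, 81.9, 102 and 102 CPM to 83.7, 34.7, 45.9, 74.8 and 34.98 CPM with TGFB1 in WT. In KO it went from 98.2, 94.8, 95, 91.1 and 92.7 to 92.6, 122, 107, 75.8 and 139.9 CPM. WT libraries 67, 71 and 75 were the low ones, and KO library 73 with TGFB1 lay below the untreated KO libraries while 68, 70 and 74 lay above them. The difference between responses was 1.12 ± 0.26 (adjusted p = 0.0251). About 45.9% of the 50-base words of Acat2 transcripts also occur in other genes, mainly Acat3, so its counts are uncertain.

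Hmgcs1 encodes HMG-CoA synthase, the enzyme before mevalonate, and was added to the genes given in full after its values were seen (ENSMUSG00000093930, chromosome 13, 119690379 to 119708260, + strand). It measured 477, 466, 363, 368 and 459 CPM in untreated WT and 362, 253, 249.5, 304 and 229.7 CPM in WT libraries with TGFB1. The libraries with TGFB1 were all lower than the untreated ones, with a log2 difference of -0.61 ± 0.14 (adjusted p = 0.00125). In KO libraries with TGFB1 it measured 377, 499, 477, 288 and 508 CPM, against 478, 509.9, 495, 431 and 518 CPM without. Library 73 was the low one among the KO libraries with TGFB1, and KO exceeded WT with TGFB1 by 0.62 ± 0.14 (adjusted p = 0.00168). The other genes of these steps are Mvk and Pmvk, which add phosphates to mevalonate, Idi1, which isomerises isopentenyl diphosphate, and Fdps, which makes farnesyl diphosphate. Over all 7, the log2 difference of KO against WT with TGFB1 ran from 0.29 in Mvk to 0.99 in Idi1, and the WT response to TGFB1 ran from -0.93 in Acat2 to -0.28 in Pmvk. For Fdps 86.4% and for Idi1 21.3% of 50-base words recur elsewhere, so both are uncertain.

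Sqle, which encodes squalene epoxidase (ENSMUSG00000022351, chromosome 15, 59315077 to 59331192, + strand), had the smallest p of the 35 genes for KO against WT with TGFB1. Its level was 344, 326, 258, 277 and 322 CPM in untreated WT and 262, 146, 147, 199 and 148 CPM in WT with TGFB1. In KO it was 308, 313, 308, 298 and 314 CPM untreated and 277, 338, 312, 232 and 355 CPM with TGFB1. WT libraries 67, 71 and 75 sat close together at the bottom, and WT library 62 with TGFB1 reached the range of the untreated and of the KO libraries. KO exceeded WT with TGFB1 by 0.75 ± 0.13 (adjusted p = 0.000223), TGFB1 in WT gave -0.76 ± 0.13 (adjusted p = 5.72e-05), and KO gave -0.03 ± 0.13 (adjusted p = 0.903). Lss, the lanosterol synthase that closes the sterol rings (ENSMUSG00000033105, chromosome 10, 76531588 to 76557138, + strand), had the largest difference between KO and WT with TGFB1. It measured 164, 56.2, 68.8, 134 and 59.4 CPM in WT libraries and 187, 265, 222, 137 and 279 CPM in KO with TGFB1, after 219, 198, 142, 174 and 199 and 207, 220.1, 225, 204 and 238 CPM without cytokine. The groups with TGFB1 overlapped where WT library 62 exceeded KO library 73, and WT libraries 67, 71 and 75 were the lowest. The KO level was 2.26-fold the WT level, a log2 difference of 1.18 ± 0.22 (adjusted p = 0.00042).

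Downstream of lanosterol, Msmo1, Nsdhl and Hsd17b7 take methyl groups off the ring. Msmo1 (ENSMUSG00000031604, chromosome 8, 64718139 to 64733792, - strand) measured 227, 111, 122, 185 and 104 CPM in WT libraries and 261, 326, 312, 190.1 and 394 CPM in KO with TGFB1, against 286, 269, 188, 228 and 267 and 255, 259, 280.4, 248 and 287 CPM without cytokine. The groups with TGFB1 overlapped through WT 62 and KO 73, and KO exceeded WT by 0.99 ± 0.18 (adjusted p = 0.000344). Nsdhl (ENSMUSG00000031349, chromosome X, 72918557 to 72958514, + strand) measured 79.3, 58.9, 73.97, 87.2 and 51.9 CPM in WT libraries and 104, 111, 117, 89.8 and 126 CPM in KO with TGFB1. Every KO library lay above every WT library, by 0.64 ± 0.12 (adjusted p = 0.00037). Without cytokine Nsdhl had measured 115, 105, 86.3, 95.5 and 96.9 CPM in WT libraries and 104, 85.8, 88.7, 92.6 and 81.7 CPM in KO, and its difference between responses was 0.78 ± 0.16 (adjusted p = 0.0173). Hsd17b7 (ENSMUSG00000026675, chromosome 1, 169949535 to 169969241, - strand) fell in WT from 72.96, 56.8, 40.3, 50.4 and 57.9 CPM to 41.5, 22.9, 19.5, 29.03 and 21.9 CPM with TGFB1. WT library 62 with TGFB1 alone overlapped the untreated libraries, at -1.05 ± 0.19 (adjusted p = 0.000119). In KO it measured 61.7, 61.3, 67.3, 62.1 and 64.02 CPM untreated and 46.9, 62.03, 52.7, 31.4 and 68.9 CPM with TGFB1, a difference of -0.27 ± 0.18 that did not pass (adjusted p = 0.291).

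The last steps rearrange and reduce double bonds. Sc5d, the lathosterol oxidase (ENSMUSG00000032018, chromosome 9, 42251595 to 42264256, - strand), measured 139, 89.3, 105, 135 and 81.3 CPM in WT libraries and 163, 211, 197, 142 and 249 CPM in KO with TGFB1, after 166, 155, 127, 148 and 157 and 158, 169, 166, 141 and 166 CPM without. All KO libraries with TGFB1 exceeded all WT libraries with TGFB1, by 0.81 ± 0.14 (adjusted p = 0.000242). Dhcr7, the 7-dehydrocholesterol reductase (ENSMUSG00000058454, chromosome 7, 143823145 to 143848410, + strand), went from 146, 142, 124, 136 and 138 to 122, 76.9, 81.4, 104 and 73.6 CPM in WT and from 139.5, 122, 133, 128 and 124 to 148, 144, 149, 114 and 159 CPM in KO. In WT the libraries with TGFB1 all lay below the untreated ones, and in KO they overlapped, with a difference between responses of 0.72 ± 0.17 (adjusted p = 0.026). Tm7sf2, a sterol C14 reductase (ENSMUSG00000024799, chromosome 19, 6062821 to 6068373, - strand), departed from the other enzymes. In WT it measured 30.4, 25.8, 28.4, 33.7 and 21.8 CPM untreated and 24.6, 21.9, 28.3, 42.97 and 18.6 CPM with TGFB1, and in KO 27.7, 23.5, 19.7, 22.8 and 21.97 and 39.9, 36.5, 40.5, 37.99 and 40.8 CPM. The WT ranges overlapped, at -0.03 ± 0.15 (adjusted p = 0.876), while every KO library with TGFB1 exceeded every untreated one, at 0.76 ± 0.15 (adjusted p = 0.000383). Same-strand exons of Vps51 cover 12.1% of Tm7sf2 exon length, and reads from that stretch cannot be assigned.

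Ebp, the sterol isomerase of this route (ENSMUSG00000031168, chromosome X, 8185329 to 8193512, - strand), was singled out after its values were seen because it was the one sterol enzyme that did not pass the test of KO against WT with TGFB1. It measured 96.7, 105, 95.2, 98.6 and 91.4 CPM in untreated WT and 104, 104, 105, 111 and 103 CPM in WT with TGFB1. In KO it measured 90.1, 93.6, 86.6, 90.6 and 87.6 CPM untreated and 104, 102, 111, 102 and 118 CPM with TGFB1. KO libraries with TGFB1 all exceeded the untreated KO libraries (0.26 ± 0.05, adjusted p = 0.00063), and KO and WT with TGFB1 overlapped, at 0.03 ± 0.05 (adjusted p = 0.73). The 2 remaining genes of the route, Fdft1 (squalene synthase) and Cyp51, were higher in KO with TGFB1 by 0.80 and 0.74 and fell in WT by 0.64 and 0.55 on the log2 scale. Antisense exons of Ctsb cover 18.3% of the exon length of Fdft1, and the strand setting of the counts is not given in the sources used here. Summed over the 18 sterol enzymes, expression was 2149 ± 564 CPM (SD, n = 5) in WT and 3542 ± 620 CPM in KO with TGFB1, against 3220 ± 356 and 3353 ± 95.7 CPM without cytokine.

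**Figure D3:**
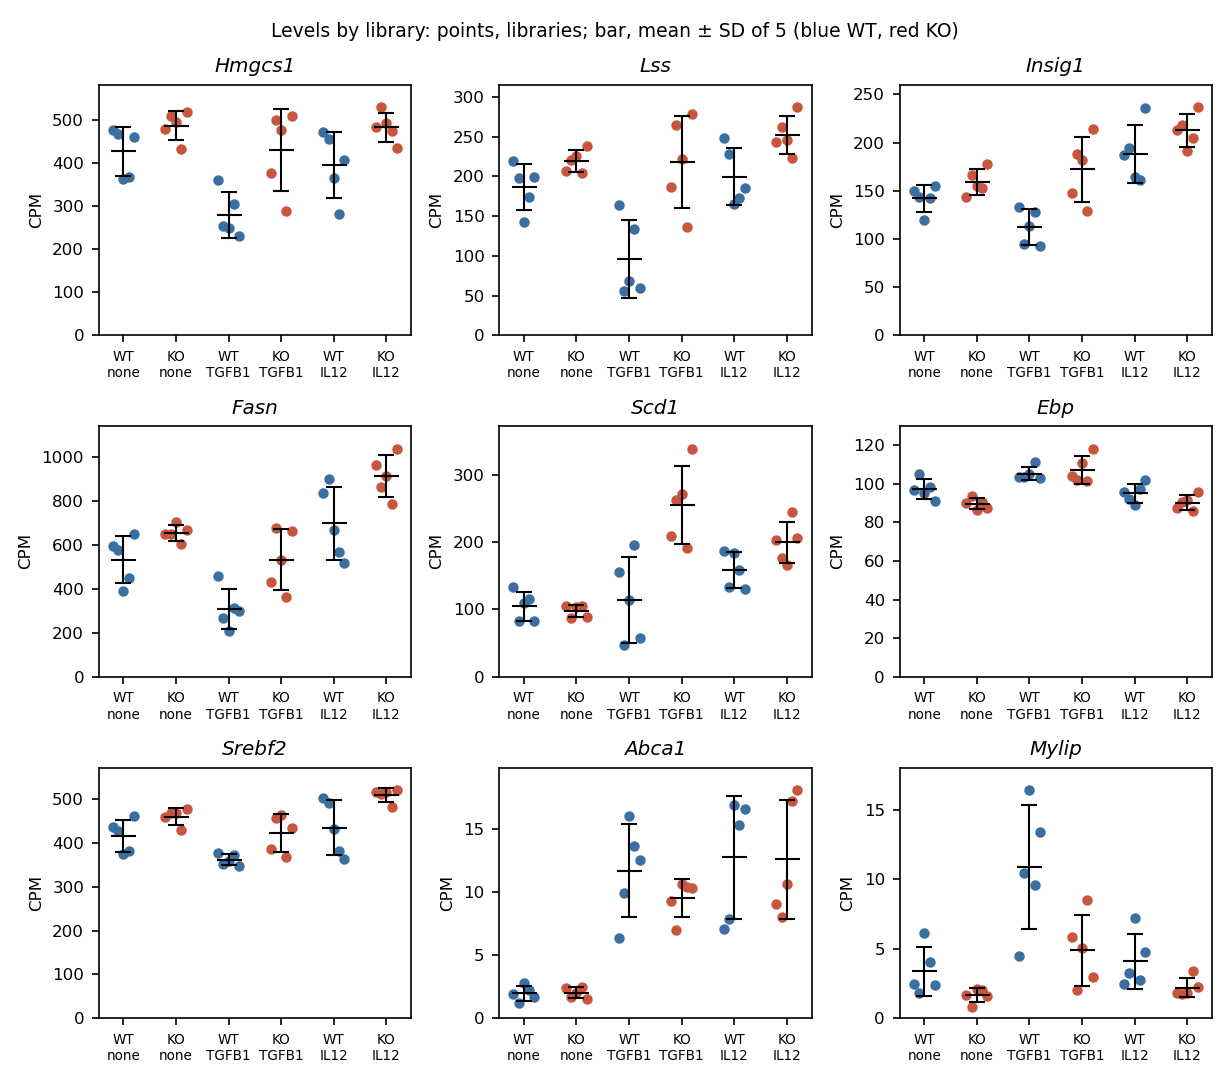
CPM of 9 genes in each of 30 libraries, with the mean and SD of the 5 libraries of each group. Hmgcs1, Lss, Insig1 and Fasn have lower means in WT with TGFB1 than in KO with TGFB1, though their ranges overlap. The means of Ebp are close there, and Abca1 is higher with either cytokine.

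The 6 genes of SREBP control and sterol transport had a median log2 difference of -0.27 with TGFB1 in WT, against -0.60 over the 18 sterol enzymes. Srebf2 encodes SREBP2, the factor of sterol genes (ENSMUSG00000022463, chromosome 15, 82147181 to 82205379, + strand), and measured 435, 426, 373, 381 and 461 CPM in untreated WT and 376, 352, 358, 372 and 348 CPM in WT with TGFB1. In KO it measured 459, 468, 468, 429 and 476 CPM untreated and 385, 458, 464, 367 and 435 CPM with TGFB1. The WT ranges overlapped through library 62, and WT and KO with TGFB1 overlapped through WT 62 and 72 and KO 73. The log2 difference with TGFB1 in WT was -0.20 ± 0.08 (adjusted p = 0.0421) and KO exceeded WT with TGFB1 by 0.22 ± 0.08 (adjusted p = 0.0271). The first call was lost in 17 and the second in 6 of the fits that left out 1 library, with adjusted p up to 0.123 without untreated WT library 75 and up to 0.0817 without KO library 68 with TGFB1. Srebf1, which encodes SREBP1 (ENSMUSG00000020538, chromosome 11, 60199089 to 60222581, - strand), measured 165, 165, 162, 152 and 172 CPM in untreated WT, 176, 145, 168, 179 and 157 CPM in WT with TGFB1, 149.7, 146, 148, 159 and 152 CPM in untreated KO and 179, 173, 195, 182 and 167 CPM in KO with TGFB1. Every KO library with TGFB1 lay above every untreated KO library (0.25 ± 0.07, adjusted p = 0.00639), while WT gave 0.01 ± 0.07 (adjusted p = 0.882).

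Scap, the escort of SREBP (ENSMUSG00000032485, chromosome 9, 110333288 to 110384950, + strand), measured 226, 202, 238, 243 and 225 CPM in untreated WT, 237, 150.2, 142, 195 and 163 CPM in WT with TGFB1 and 247, 223, 214, 216 and 212 CPM in KO with TGFB1. WT library 62 with TGFB1 lay in the untreated range, and the other WT libraries with TGFB1 lay below it. Scap fell with TGFB1 in WT (-0.35 ± 0.10, adjusted p = 0.00732) and was higher in KO than in WT with TGFB1 (0.33 ± 0.10, adjusted p = 0.0137). The second call was lost without WT library 67 or 71 with TGFB1 (adjusted p up to 0.0571). Insig1, itself an SREBP target that retains SCAP (ENSMUSG00000045294, chromosome 5, 28071363 to 28078662, + strand), measured 149.7, 144, 119.5, 142 and 155 CPM in untreated WT, 133, 94.7, 113, 128 and 92.2 CPM in WT with TGFB1 and 148, 188, 182, 128 and 214 CPM in KO with TGFB1. The log2 difference in WT was -0.34 ± 0.12 (adjusted p = 0.0269), and KO exceeded WT with TGFB1 by 0.62 ± 0.12 (adjusted p = 0.000594), with WT 62 and KO 73 overlapping. The fall in WT was lost without untreated WT library 62 or 75 or WT library 67 or 75 with TGFB1 (adjusted p up to 0.11). Its relative Insig2 (ENSMUSG00000003721, chromosome 1, 121304353 to 121332589, - strand) measured 28.8, 26.01, 27.3, 29.6 and 23.4 CPM in untreated WT, 26.9, 23.1, 26.8, 33.96 and 23.7 CPM in WT with TGFB1, 26.7, 29.3, 26.1, 28.5 and 31.8 CPM in untreated KO and 32.5, 31.3, 31.3, 29.5 and 34.2 CPM in KO with TGFB1, all of them overlapping. Insig2 passed in no comparison of this fit. KO against WT with TGFB1 gave 0.24 ± 0.10 (adjusted p = 0.0634), which passed with a term for library numbers above 70 (0.27, adjusted p = 0.0286), and TGFB1 in WT gave -0.00 ± 0.10 (adjusted p = 0.975). Stard4, a carrier of cholesterol between membranes, was higher in KO with TGFB1 by 0.69 on the log2 scale and fell by 0.45 in WT, a fall that was lost without WT library 75 with TGFB1 (adjusted p = 0.0622).

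Promoter sequence is shown for genes of the control system and for an enzyme whose mRNA moved with the others, since SREBP is known to act at sterol regulatory elements beside NF-Y sites. RefSeq promoters of GRCm38.p6 were matched for 27 of the 35 genes. The stretches hold up to 250 bases before the start site, cut to bases outside annotated exons, and are written on the strand of the gene. Capitals mark CACNCCA, the core of the sterol regulatory element (SRE), and CCAAT, the NF-Y box, on either strand, which reads ATTGG for the reverse of CCAAT; an SRE core may share bases with an NF-Y box. Among the 35 promoters of these 27 genes, 3 such stretches held both. The uncut 250 bases of Insig1 and Msmo1 also held both, but the cut removed their SRE cores. The share of all promoters that hold both was not counted. Fasn, which held the NF-Y box but no exact match of the SRE core, is also given. The search finds exact letters only, so it does not show whether SREBP acts there.
Hmgcs1, chr13:119690101-119690350, + strand: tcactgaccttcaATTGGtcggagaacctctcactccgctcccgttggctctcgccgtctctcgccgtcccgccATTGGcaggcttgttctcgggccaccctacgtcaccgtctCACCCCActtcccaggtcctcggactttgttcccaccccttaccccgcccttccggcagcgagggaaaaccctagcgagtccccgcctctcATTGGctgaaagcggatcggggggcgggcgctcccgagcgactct
Insig2, chr1:121332590-121332839, - strand: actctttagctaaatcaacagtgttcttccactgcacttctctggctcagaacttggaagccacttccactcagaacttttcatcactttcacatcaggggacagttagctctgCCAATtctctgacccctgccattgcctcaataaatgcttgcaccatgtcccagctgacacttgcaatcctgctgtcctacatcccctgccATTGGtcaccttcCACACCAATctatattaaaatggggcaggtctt
Srebf2, chr15:82147019-82147180, + strand: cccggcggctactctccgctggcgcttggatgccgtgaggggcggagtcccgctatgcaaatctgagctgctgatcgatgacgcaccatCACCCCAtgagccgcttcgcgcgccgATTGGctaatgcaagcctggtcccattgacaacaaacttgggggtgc
Fasn, chr11:120824548-120824797, - strand: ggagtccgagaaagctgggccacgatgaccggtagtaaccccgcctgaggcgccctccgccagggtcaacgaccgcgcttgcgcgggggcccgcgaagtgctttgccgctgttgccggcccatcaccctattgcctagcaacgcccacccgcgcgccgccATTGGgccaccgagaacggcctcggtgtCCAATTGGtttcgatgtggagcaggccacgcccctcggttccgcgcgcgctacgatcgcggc

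Of the genes shown, Hmgcs1, Srebf2 and Fasn fell with TGFB1 in WT cells, by 0.61, 0.20 and 0.79 on the log2 scale, and Insig2 passed in no comparison of the reported fit. Over the 250 bases before the start, the SRE core was found in 6 of the 27 genes, against 17.4% of 27025 genes with a promoter. CCAAT was found in 20 of 27 genes against 37.5%, the GC box GGGCGG in 23 of 27 against 35.4%, and the E-box CACGTG in 6 of 27 against 6.86%, each on either strand. The 27025 genes include genes too low to be tested here, so these shares are not matched for expression. These are matches of letters and not binding sites.

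**Figure D4:**
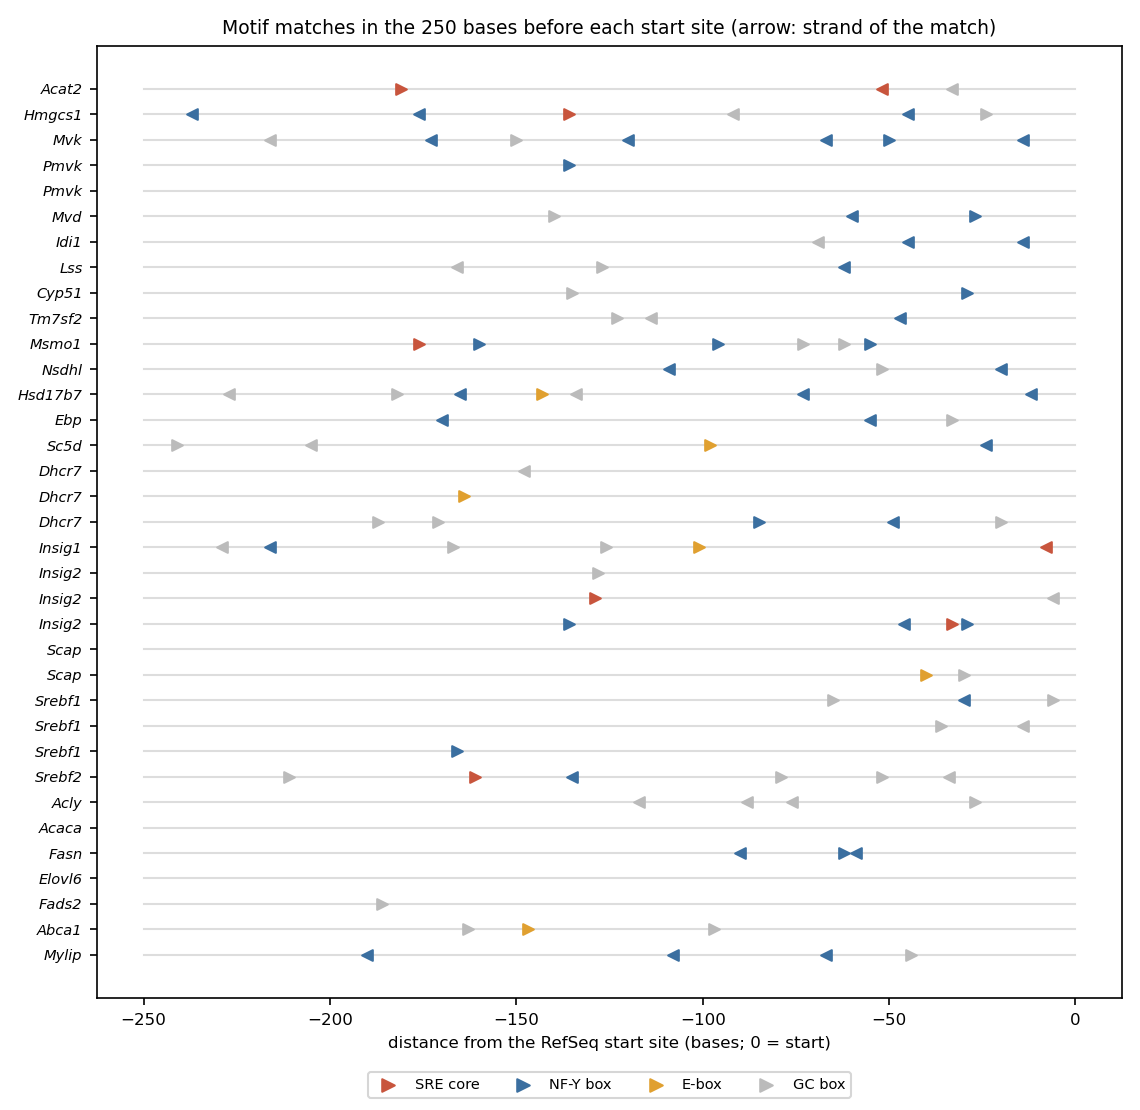
Positions of the SRE core, NF-Y box, GC box and E-box in the 35 RefSeq promoters of 27 genes, by distance in bases from the start site. NF-Y and GC boxes fall in most rows, and the SRE core falls in the promoters of 6 genes.

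Acly (ENSMUSG00000020917, chromosome 11, 100476353 to 100528000, - strand) measured 726, 681, 599, 622 and 679 CPM in untreated WT and 546, 400.4, 397, 542 and 382 CPM in WT with TGFB1, with no overlap between them, a log2 difference of -0.54 ± 0.10 (adjusted p = 0.000127). In KO it measured 694, 689, 707, 674 and 698 CPM untreated and 594, 703, 678, 518 and 719 CPM with TGFB1, which overlapped. Acaca, which commits acetyl-CoA to fatty acids (ENSMUSG00000020532, chromosome 11, 84129672 to 84401651, + strand), was the one gene of the 35 that fell with TGFB1 in KO. It measured 107, 104, 116, 91.3 and 117 CPM in untreated KO and 59.7, 88.6, 74.4, 48.3 and 83.8 CPM in KO with TGFB1, all lower (-0.59 ± 0.16, adjusted p = 0.00666). In WT it measured 103, 89.3, 71.5, 73.7 and 92.3 CPM untreated and 61.1, 43.5, 36.99, 46.7 and 45.5 CPM with TGFB1, also with no overlap (-0.88 ± 0.16, adjusted p = 0.000162), and the difference between the responses did not pass (adjusted p = 0.465). Some 52.6% of the 50-base words of Acaca recur in other genes, mainly Gm5182, so its counts are uncertain.

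Fasn, the fatty acid synthase, was added after its values were seen (ENSMUSG00000025153, chromosome 11, 120805846 to 120824547, - strand). It measured 597, 576, 392, 451 and 652 CPM in untreated WT and 458, 267, 207, 312 and 299 CPM in WT with TGFB1, and it went from 650.0, 649, 704, 604 and 669.7 CPM to 430.1, 676, 532, 362 and 664 CPM in KO. WT library 71 and KO library 73 with TGFB1 were the lowest of their groups. KO exceeded WT with TGFB1 by 0.79 ± 0.18 (adjusted p = 0.00192). Elovl6, which elongates palmitate (ENSMUSG00000041220, chromosome 3, 129532355 to 129638495, + strand), had the largest fall with TGFB1 in WT. It went from 88.2, 80.4, 65.1, 80.4 and 88.8 CPM to 68.3, 24.9, 25.1, 45.6 and 27.3 CPM, and in KO from 82.2, 85.05, 80.6, 86.6 and 89.4 to 69.3, 96.1, 73.3, 54.2 and 111 CPM. WT library 62 reached the untreated range while 67, 71 and 75 stood below 30 CPM. The log2 difference in WT was -1.08 ± 0.20 (adjusted p = 0.000176), and KO exceeded WT with TGFB1 by 1.08 ± 0.20 (adjusted p = 0.000413).

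The desaturases Scd1 and Scd2 rose with TGFB1 in KO. Scd1 (ENSMUSG00000037071, chromosome 19, 44394455 to 44407879, - strand) measured 105, 87.9, 104, 105 and 88.2 CPM in untreated KO and 208, 263, 271, 192 and 338 CPM in KO with TGFB1, all higher (1.38 ± 0.25, adjusted p = 0.000136). In WT it measured 133, 82.1, 109, 115 and 83.2 CPM untreated and 156, 46.6, 114, 196 and 56.98 CPM with TGFB1, where libraries 67 and 75 lay below and 62 and 72 above the untreated range (0.13 ± 0.25, adjusted p = 0.714). The difference between responses, 1.25 ± 0.35 (adjusted p = 0.0448), was the largest of the 35 genes, though it was lost in 16 of the fits that left out 1 library (adjusted p up to 0.106, without KO library 74 with TGFB1). Scd2 (ENSMUSG00000025203, chromosome 19, 44293674 to 44306864, + strand) measured 1107, 846, 966, 1126 and 982 CPM in untreated KO and 1378, 1417, 1520, 1349 and 1521 CPM in KO with TGFB1, again all higher (0.52 ± 0.10, adjusted p = 0.000384). In WT with TGFB1 Scd2 measured 1184, 952, 1138, 1347 and 949 CPM, all below the KO libraries with TGFB1 (0.37 ± 0.10, adjusted p = 0.0067). Fads1, a desaturase of polyunsaturated fatty acids (ENSMUSG00000010663, chromosome 19, 10182888 to 10196877, + strand), measured 93.5, 102, 102, 96.1 and 93.9 CPM in untreated WT, 75.3, 79.04, 83.7, 80.5 and 72.7 CPM in WT with TGFB1 and 94.3, 101, 99.5, 91.4 and 106 CPM in KO with TGFB1. The WT libraries with TGFB1 lay below both other sets without overlap, with -0.32 ± 0.10 (adjusted p = 0.0109) against untreated WT, and KO exceeded WT with TGFB1 by 0.33 ± 0.10 (adjusted p = 0.00976). Its neighbour in function, Fads2, was higher in KO with TGFB1 by 0.72 and fell in WT by 0.79 on the log2 scale.

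The LXR targets did not follow the enzymes. Abca1, which exports cholesterol to lipoproteins (ENSMUSG00000015243, chromosome 4, 53030787 to 53159895, - strand), measured 1.89, 1.23, 2.83, 2.27 and 1.703 CPM in untreated WT and 2.41, 1.67, 1.98, 2.48 and 1.498 CPM in untreated KO. With TGFB1 it measured 6.38, 9.91, 15.98, 13.7 and 12.5 CPM in WT libraries and 9.31, 7.01, 10.6, 10.4 and 10.3 CPM in KO, and with IL12 7.11, 7.85, 16.9, 15.3 and 16.6 CPM in WT libraries and 9.02, 8.02, 10.6, 17.2 and 18.04 CPM in KO libraries. Every library with either cytokine exceeded every untreated one of its genotype, and KO and WT overlapped in each condition. The log2 difference with TGFB1 was 2.57 ± 0.30 (adjusted p = 4.25e-07) in WT and 2.24 ± 0.30 (adjusted p = 2.43e-06) in KO. With IL12 it was 2.69 ± 0.30 (adjusted p = 5.28e-07) and 2.64 ± 0.30 (adjusted p = 6.94e-07). Abca1 thus rose with both cytokines in both genotypes, and the TGFB1 and IL12 tests share their untreated libraries.

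Abcg1, another sterol exporter (ENSMUSG00000024030, chromosome 17, 31057675 to 31117988, + strand), measured 39.1, 47.2, 85.6, 67.8 and 55.2 CPM in untreated WT, 74.3, 88.2, 108, 87.5 and 89.1 CPM in WT with TGFB1, 41.9, 20.2, 28.1, 51.1 and 24.5 CPM in untreated KO and 87.2, 41.5, 70.7, 96.6 and 52.9 CPM in KO with TGFB1. The rise with TGFB1 passed in KO (1.07 ± 0.26, adjusted p = 0.00327) and missed in WT (0.60 ± 0.25, adjusted p = 0.0621), where it passed with the compared groups fitted alone (adjusted p = 0.0229) and with a term for library numbers above 70 (adjusted p = 0.0456). The difference between these responses was 0.47 ± 0.36 and did not pass (adjusted p = 0.455). IL12 gave 38.8, 36.7, 48.3, 45.5 and 27.04 CPM in the WT group and 32.4, 19.8, 27.9, 41.3 and 14.8 CPM in the KO group. KO libraries were on average lower than WT libraries in all 3 conditions, with overlap, and none of these differences passed.

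Mylip, the ubiquitin ligase (ENSMUSG00000038175, chromosome 13, 45389742 to 45412022, + strand), is low in these cells and had fewer than 10 counts in 1 of the 30 libraries. It measured 2.45, 1.85, 6.12, 4.07 and 2.38 CPM in untreated WT, 4.48, 10.5, 16.4, 9.58 and 13.4 CPM in WT with TGFB1, 1.698, 0.835, 2.11, 2.05 and 1.598 CPM in untreated KO and 5.85, 2.05, 5.09, 8.53 and 2.95 CPM in KO with TGFB1. The WT group with IL12 had 2.46, 3.29, 7.22, 2.74 and 4.76 CPM and the KO group 1.85, 1.72, 1.81, 3.42 and 2.22 CPM. WT library 62 was the lowest of its group with TGFB1, and the same library was lowest there for Abca1 and Abcg1. TGFB1 raised Mylip in WT cells (1.70 ± 0.36, adjusted p = 0.000645) and in KO cells (1.56 ± 0.41, adjusted p = 0.00519). Mylip was the one gene of the 35 that was lower in KO than in WT with TGFB1 (-1.16 ± 0.35, adjusted p = 0.0108), a call that was lost with the compared groups fitted alone (-1.17, adjusted p = 0.0503). Without cytokine the difference was -1.02 ± 0.42 (adjusted p = 0.189) and with IL12 -0.91 ± 0.39 (adjusted p = 0.142), neither past the threshold.

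The WT libraries with TGFB1 differed among themselves more in these genes than in others. The median coefficient of variation was 27.5% over the 35 genes and 15.5% over all genes in that group, 16.3% and 13% in KO with TGFB1, and 10.9% and 11.1% in untreated WT. WT libraries 62 and 72 were the highest pair for 29 of the 35 genes, or 82.9%, where they were the highest pair for 25% of all genes tested. Library 62 came from the male, as did 63 in KO. In KO with TGFB1, library 73 was lowest for 29 of the 35 genes (27.1% of all genes) and library 74 highest for 24 (24.2% of all genes). With the libraries of females alone, 30 of the 35 genes passed for KO against WT with TGFB1, and the median log2 difference was 0.75. Without WT library 62 of the TGFB1 group the median was 0.73.

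Genes that define CD8 T cells moved against the enzymes. Their summed level was 3149 to 3522 CPM in untreated WT, 3454, 5184, 5314, 4064 and 5199 CPM in WT with TGFB1 and 2943 to 3785 CPM in KO with TGFB1. WT libraries 62 and 72, high in the lipid genes, were the lowest of their group here. Of the 8 genes, 6 rose with TGFB1 in WT, where 19.2% of all genes rose, and 6 were lower in KO than in WT with TGFB1, where 17.3% of all genes were. The 5 tested markers of other cells summed to 40.66 to 106.4 CPM in WT and 19.8 to 58.07 CPM in KO with TGFB1, and 2 of them, Cd79b and Pecam1, were lower in KO. Of 14 proliferation genes, none was higher and 2 were lower in KO with TGFB1, the latter close to the 17.3% of all genes. The share of counts in ribosomal protein genes was 9.47% to 10.5% in WT and 8.84% to 9.86% in KO with TGFB1. The part of these differences in the lipid gene results was not tested.

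Without added cytokine, no gene of the 35 differed between KO and WT by edgeR's quasi-likelihood test, where 1.08% of all genes were higher and 1.02% lower (2.1% in either direction). Of the 35 genes, 3 had an unadjusted p below 0.05, and DESeq2 called 1, Abcg1. The log2 differences ran from -1.02 in Mylip to 0.32 in Acaca with a median of 0.0022, and those of the 18 sterol enzymes from -0.27 to 0.23. Abcg1 came nearest at -0.83 ± 0.26 (adjusted p = 0.0886). It passed without KO library 73 of the untreated group. No gene had groups that did not overlap, against 3.01% of all genes higher and 3.54% lower.

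IL12 changed 3 of the 35 genes in WT and 5 in KO, the latter a share close to that of all genes. In WT 2 of the 35 rose and 1 fell, against 10.5% and 8.3% of all genes (18.9% in either direction), and in KO 5 rose and none fell, against 8.49% and 5.74% (14.2% in either direction). With the untreated and IL12 libraries of KO fitted alone, 13 of the 35 rose, Hsd17b7, Lss and Msmo1 among them. None of the 18 sterol enzymes passed in either genotype in the fit to all libraries by edgeR's quasi-likelihood test, and none there had an unadjusted p below 0.05. Insig1 rose in both genotypes, to 188, 194, 165, 161 and 236 CPM in WT and to 213, 218, 191, 205 and 237 CPM in KO from 144, 166, 155, 153 and 178 CPM without cytokine. All libraries with IL12 lay above the untreated ones of the same genotype, with log2 differences of 0.41 ± 0.12 (adjusted p = 0.0172) and 0.42 ± 0.12 (adjusted p = 0.0166). Fads1 was 97.02, 97, 77.2, 66.8 and 57.3 CPM in WT with IL12, where libraries 71, 72 and 75 lay below the untreated range (-0.31 ± 0.10, adjusted p = 0.0269). In KO with IL12 Scd1 was 203, 176, 166, 245 and 207 CPM and Scd2 1356, 1158, 1155, 1612 and 1237 CPM, both above all untreated KO libraries. Their log2 differences were 1.02 ± 0.25 (adjusted p = 0.00506) and 0.37 ± 0.10 (adjusted p = 0.012). Scap rose in KO from 208, 188, 209, 209.5 and 207 CPM to 269.6, 237, 251, 299.8 and 239 CPM (0.34 ± 0.10, adjusted p = 0.0204). In KO the values of 14 of the 35 genes with IL12 lay above all untreated values, where 9.11% of all genes did so, and none lay below them (8.24% of all genes). In WT 2 lay above (6.65% of all genes) and none below (5.81%). With females alone the rise of Insig1 in KO was lost by the same test (0.386, adjusted p = 0.0708). Single libraries mattered here. Insig1 was lost without WT library 75 (adjusted p = 0.0799) or KO library 74 (adjusted p = 0.0562) with IL12 or the untreated WT 71 or KO 63, Fads1 with the WT groups fitted alone (adjusted p = 0.125) or without any of 4 WT libraries (untreated 67 and 71, 72 and 75 with IL12, adjusted p up to 0.103), Scap without untreated KO 68 or KO 73 with IL12 (adjusted p up to 0.066), and Scd2 without KO 73 with IL12 (adjusted p = 0.0509). In WT the count of 3 called genes was 1 without untreated WT library 71, and in KO the count of 5 was 3 without KO library 73 with IL12.

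With IL12 present, no gene of the 35 differed between KO and WT by edgeR's quasi-likelihood test, where 2.76% of all genes were higher and 4.01% lower (6.78% in either direction). Of the 35 genes, 7 had an unadjusted p below 0.05, and DESeq2 called 1, Srebf2. Srebf2 measured 503, 491, 431, 382 and 363 CPM in the WT group and 516, 511, 515, 482 and 519.7 CPM in the KO group, an overlap through WT libraries 62 and 67 (0.23 ± 0.08, adjusted p = 0.0704). The median log2 difference was 0.11, and all 8 fatty acid genes were above 0 with a median of 0.26. No gene's groups failed to overlap, against 2.3% of all genes higher and 2.76% lower. The count of 0 became 2, Srebf2 and Acaca, without WT library 62 with IL12, and 1, Srebf2, without WT library 67. The difference between the IL12 responses of KO and WT passed for none of the 35 genes and for none of all genes by the same test (0% of all genes), with 1 of the 35 at an unadjusted p below 0.05.

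**Figure D5:**
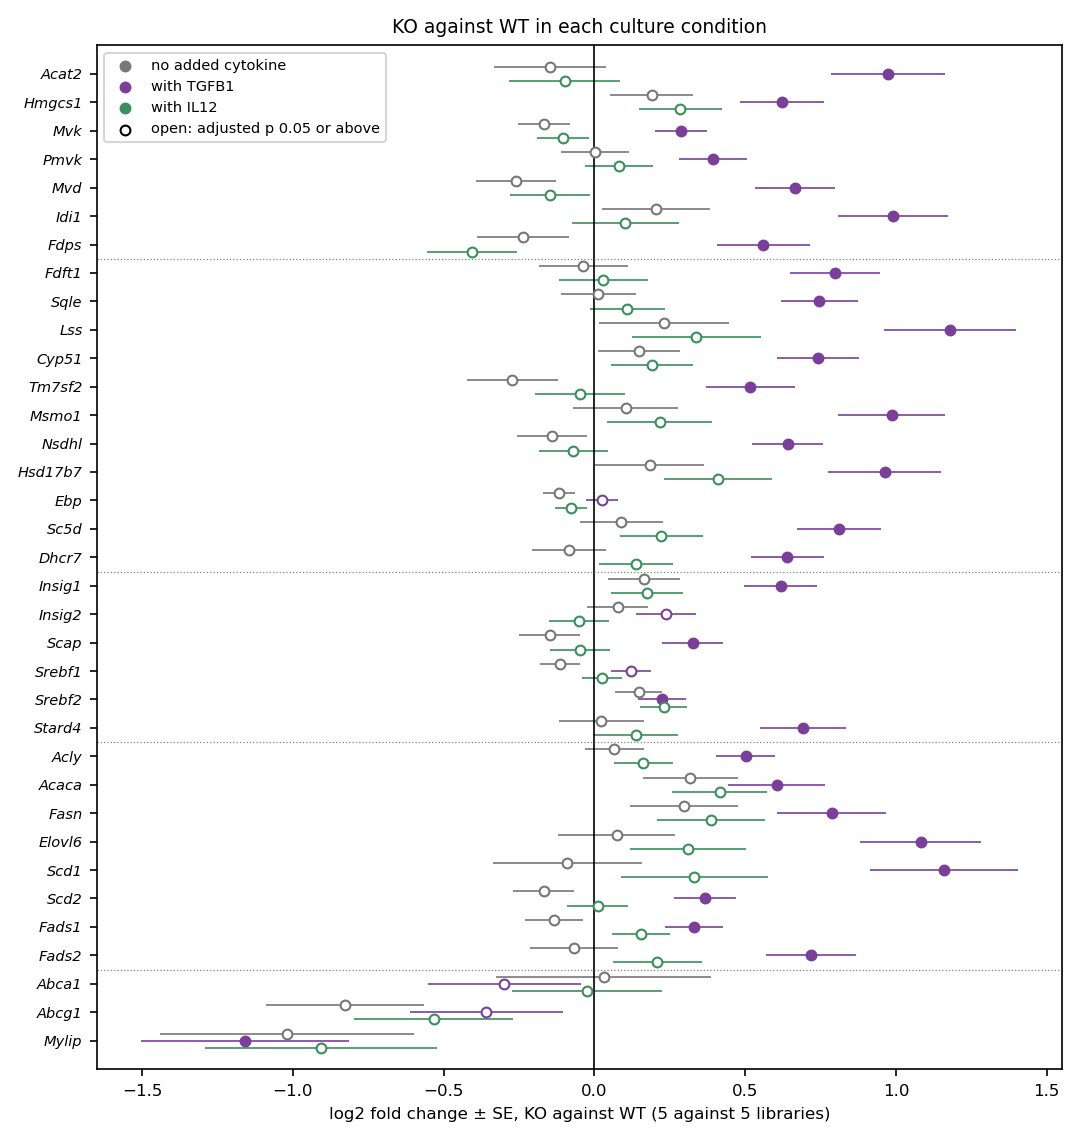
Log2 difference of KO against WT for each of the 35 genes without cytokine, with TGFB1 and with IL12, with SE as bars and open symbols where the adjusted p was 0.05 or more. With TGFB1 29 genes are filled above 0 and Mylip is filled below 0, and in the other conditions every symbol is open.

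Other genes of these pathways were read against the shares of all genes, 18.3% higher and 17.3% lower in KO than in WT with TGFB1, and 19.2% raised and 18.6% lowered by TGFB1 in WT. Of 19 other sterol and isoprenoid genes tested, 7 were higher and 3 lower in KO than in WT with TGFB1. The median log2 difference of the list was -1e-04, with 9 genes above and 10 below 0, so the list was split. The 7 called higher were a larger share than the 18.3% of all genes, and the 3 called lower a share close to 17.3%. With TGFB1 in WT the median of the list was -0.18, with 13 genes below and 6 above 0. The called genes with the smallest p were Lrp8, a lipoprotein receptor (1.05, adjusted p = 0.000119), Scarb1, a receptor for high-density lipoprotein (0.78, adjusted p = 0.000263), and Tmem97, a sterol-regulated membrane protein (0.76, adjusted p = 0.000393). Of 23 other fatty acid and lipid genes, with a median of 0.28, 12 were higher and 1 lower. Among the higher ones were Pcyt2 of phosphatidylethanolamine synthesis (0.65) and the citrate carrier Slc25a1 (0.58). Genes were named by p and not by size, and the differences of this list reached 1.39. In WT, TGFB1 lowered 7 and raised 3 of the first list and lowered 11 and raised 2 of the second. Soat1, which esterifies cholesterol, was among those that rose (0.70, adjusted p = 3.27e-05).

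Of 15 genes of SREBP processing and turnover, 4 were higher and 2 lower in KO with TGFB1, a share close to the 35.6% of all genes that differed in either direction. Sec24a (0.82) and Sar1b (0.48), parts of the vesicle coat that leaves the endoplasmic reticulum, were higher, and Rnf145, a ubiquitin ligase of that membrane, was lower (-0.58). Mbtps1, the site-1 protease that cuts SREBP, gave -0.00 ± 0.06 between KO and WT with TGFB1 (adjusted p = 0.986), and rose with TGFB1 by 0.20 in WT cells and by 0.29 in KO cells (adjusted p of 0.00597 and 0.000394). Of 11 LXR receptors and other LXR targets, 6 rose and 1 fell with TGFB1 in WT, where 19.2% of all genes rose and 18.6% fell, and 5 rose and none fell in KO, against 13.5% and 11%. Rxra, the partner receptor of LXR, rose by 2.41 in WT and by 1.97 in KO cells (adjusted p of 1.03e-06 and 4.25e-06). The receptor genes themselves differed in level per length of exon: in untreated WT Nr1h2 (LXR beta) stood at 19.5 and Nr1h3 (LXR alpha) at 0.36 CPM per kb.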

How the data were processed

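Gene counts of poly(A) RNA-seq libraries were deposited by the authors as whole-number counts per Ensembl gene, not normalised. The submitters' processing notes name STAR, Trim Galore, FastQC, DESeq2 1.24.0 and the build GRCm38; per the labels' protocols the libraries were strand-specific. How reads were counted, with which strand setting and gene models, is not given in the sources used here. Symbols and coordinates came from GENCODE vM21 and matched 55394 of 55573 genes; the other 179 held 0.011% of counts.

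Genes were kept by edgeR 4.0.16 filterByExpr with a minimum count of 10, scaled by TMM, and fitted with glmQLFit on 6 groups and 30 libraries (R 4.3.3). p-values were adjusted by Benjamini-Hochberg over 11718 genes, and a call needed an adjusted p below 0.05. The SE was the absolute log2 difference divided by the square root of F. CPM used TMM library sizes. The fit was also run on simulated counts with an equal spread for all genes, which does not test the calls given here. At these depths 34 of the 35 genes had at least 10 counts in every library; the biological coefficient of variation was 14.3%.

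Values in every library are given for Srebf1, Srebf2, Insig1, Insig2, Scap and the LXR targets, and in each comparison for the 4 called genes of smallest p and the called gene of largest difference in each direction; Hmgcs1, Fasn and Ebp are exceptions. Of the other lists, the 3 called genes of smallest p could be named; Soat1 and Mbtps1 are such genes, and the comparison of Mbtps1 between genotypes and the levels of Nr1h2 and Nr1h3 were added after values were seen. The 35 genes and all lists were chosen with earlier results of these data known. Alternatives were RLE scaling, no filter, a filter at 50 counts, DESeq2 1.42.0, the compared groups alone, library number as a block (limma 3.58.1 or edgeR), females alone, a term for numbers above 70, and leaving out each library. Promoters came from RefSeq.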

Additional observations from a re-analysis of the deposited data

Results flagged for a closer look

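Within the groups of 5 libraries, 4 of 210 sets of values had a library far from the other libraries by Dixon's test at 95%; chance alone flags about 1 set in 20. In WT with TGFB1, library 72 had 111 CPM of Ebp, against at most 105 CPM in the other libraries of the group. In KO with IL12, library 70 had 145 CPM of Sc5d, with the next library at 163 CPM, and library 73 had 482 CPM of Srebf2, with the next at 511 CPM. In untreated KO, library 68 had 188 CPM of Scap, with the next at 207 CPM.

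The TGFB1 response differed between KO and WT, by the interaction term of edgeR's quasi-likelihood fit, for the 15 genes named above. Among the genes of the early steps, the log2 response was more positive in KO by 1.12 for Acat2, 0.46 for Mvk, 0.93 for Mvd and 0.80 for Fdps. From squalene to cholesterol the difference was 0.84 for Fdft1, 0.73 for Sqle, 0.79 for Tm7sf2, 0.88 for Msmo1, 0.78 for Nsdhl, 0.72 for Sc5d and 0.72 for Dhcr7. Among the fatty acid genes it was 1.01 for Elovl6, 1.25 for Scd1, 0.54 for Scd2 and 0.79 for Fads2. Of these 15 genes, Mvd and Nsdhl passed whichever single library was left out.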

How the results depend on the processing

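No difference of the 35 genes that passed, in the reported fit or under an alternative, reversed its direction. For KO against WT with TGFB1, the count of 30 genes that passed ranged from 23 to 31, for TGFB1 in WT the count of 28 from 26 to 29, and for TGFB1 in KO the count of 10 from 10 to 11; leaving out single libraries gave 28 to 31, 23 to 29 and 9 to 11. For KO against WT without cytokine the count of 0 became 1 with DESeq2 and 2 (Abcg1 and Mvd) with the compared groups alone (0 to 1 without single libraries), and with IL12 it became 1 with DESeq2 and 2 (Srebf2 and Acaca) with females alone (0 to 2). For IL12 in WT the count of 3 became 7 with the number as a fixed block (1 to 4 without single libraries), and in KO the count of 5 became 13 with the compared groups alone (3 to 6). For the difference between TGFB1 responses the count of 15 became 23 with DESeq2, 23 with females alone, 8 with the groups compared alone, and 2 to 27 without single libraries. The library number as a block gave 23 for that difference as a random and 23 as a fixed term; it gave 31 for KO against WT with TGFB1 as a random term. Under both blocks Scap and Stard4 passed for the first and Abcg1 rose with TGFB1 in WT, and Insig2 passed for the second under the random one. Same-numbered libraries were treated as sharing only a number, since the labels tie them to no animal or day. Not every pair correlated above 0.1 over the genes tested: 25 of 30 did, from -0.034 to 0.43 with a median of 0.222. Over the 35 genes alone the median was 0.404, a likeness that the reported fit leaves out. Each number also had the same sex in every condition. Of 30 libraries, 13 had their closest library of another group under the same number. The causes of these shifts were not tested. Depth limits Mylip and Abca1 most, with as few as 8 and 12 counts in a library.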

Other observations

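Me1, malic enzyme, which supplies NADPH for fatty acid synthesis and is not one of the 35 genes, rose with IL12 in WT cells, with a log2 difference of 4.57 (adjusted p = 0.00027 by edgeR's quasi-likelihood test), and KO cells gave 2.94 (adjusted p = 0.0528), which did not pass. Its values in WT with IL12 were 0.547, 0.194, 5.88, 5.37 and 7.98 CPM in libraries 62, 67, 71, 72 and 75, against 0 to 0.359 CPM in untreated WT, so that libraries 71, 72 and 75 were high and library 67 lay in the untreated range. Osbpl8, a lipid transfer protein at membrane contacts, rose with IL12 in WT by 0.57 (adjusted p = 0.000154) and in KO by 0.58 (adjusted p = 0.000161). Gramd1b, a carrier of cholesterol from the plasma membrane to the endoplasmic reticulum, fell with TGFB1 in KO by 1.36 on the log2 scale (adjusted p = 2.37e-06), and its relative Gramd1a rose there (0.55, adjusted p = 1.12e-05).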
